A study of Rattus norvegicus with 24 samples.

Results

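MHC class II molecules present peptides to CD4+ T cells, and 8 genes of this pathway were followed in the kidneys of cystic rats. They were Cd74 (Entrez 25599), Ciita (85483), RT1-Da (294269), RT1-Ba (309621), RT1-Bb (309622), RT1-Db1 (294270), RT1-DMa (294274) and RT1-DMb (294273). They were chosen by name as genes of the pathway, at a time when earlier results of these data were known, and matched by symbol to the Entrez identifiers of the deposited tables. All 8 were found among the 17334 genes of the files and all 8 passed the filter on low counts, as did 12778 genes in all. The lowest estimated count of any of the 8 genes in any kidney was 42, for Ciita.

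The kidneys came from 24 male PKD/Mhm (Cy/+) rats aged 8 months, in 4 groups of 6, and RNA of the left kidney was sequenced. All animals were labelled heterozygous for the Cy mutation, a missense change in Anks6 that leads to cystic kidneys. The controls (Ctrl) carried the same label and received no treatment. The CoCM group received, monthly for 6 months, medium from a co-culture of ABCB5+ stromal cells of human skin with THP-1-derived macrophages, a human line, that had been stimulated with interferon gamma and LPS. The route of this medium is given as intraperitoneal in one description of the study and as intravenous in another. The remaining animals received the human cells themselves on the same schedule, 6 by intraperitoneal (i.p. ABCB5+) and 6 by intravenous injection (i.v. ABCB5+). Carriers had been told from non-cystic animals by abdominal palpation, no animal analysed here was labelled non-cystic, and the genotype was not tested in these data. Animals were numbered 1 to 24 in Ctrl and 26 to 43 in the treated groups, so animal order and treatment cannot be told apart in any comparison with Ctrl.

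A class II molecule is a pair of an alpha and a beta chain that carries a peptide to the surface of an antigen-presenting cell. The rat has the RT1-B pair (RT1-Ba and RT1-Bb) and the RT1-D pair (RT1-Da and RT1-Db1). The invariant chain, encoded by Cd74, binds new pairs and blocks their groove, and the RT1-DM pair (RT1-DMa and RT1-DMb) later helps to exchange its remnant for a peptide from a digested protein. Ciita is the coactivator on which transcription of these genes depends. It is recruited to short promoter elements known as the X and Y boxes by the RFX, CREB and NF-Y factors. Dendritic cells, B cells and macrophages express class II genes constitutively, and interferon gamma induces them in many other cells, tubular epithelium included.

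The promoters of the members are shown first because the X and Y boxes are what these genes are known to share. RefSeq promoter windows of the rat assembly GRCr8, from 250 bases before to 50 bases after the gene start, were given for 6 of the 8 genes. The deposited values were made with another build, rn6, so the sequences describe the genes and not the read alignment. The capitals mark an X-like pattern, written here to stand for part of the X box (GNNAC directly followed by NNNTG, where N is any base), and ATTGG, the core of the Y box.
RT1-Da: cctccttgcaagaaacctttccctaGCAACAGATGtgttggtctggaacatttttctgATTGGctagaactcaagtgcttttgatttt
RT1-Db1: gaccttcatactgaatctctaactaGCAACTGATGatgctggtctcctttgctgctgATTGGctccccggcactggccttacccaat
RT1-Bb: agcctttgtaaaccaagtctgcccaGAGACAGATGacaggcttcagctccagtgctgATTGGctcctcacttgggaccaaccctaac
RT1-DMa: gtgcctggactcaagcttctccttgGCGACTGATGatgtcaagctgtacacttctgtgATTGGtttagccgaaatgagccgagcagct
RT1-Ba: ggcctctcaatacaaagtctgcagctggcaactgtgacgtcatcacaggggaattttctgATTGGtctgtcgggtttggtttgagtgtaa

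All 5 of these genes lie on chromosome 20, where the rat MHC is. The stretches printed are chr20:4515308-4515395 on the plus strand for RT1-Da, chr20:4560213-4560299 on the minus strand for RT1-Db1, chr20:4604150-4604236 on the minus strand for RT1-Bb, chr20:4712370-4712457 on the minus strand for RT1-DMa and chr20:4576954-4577043 on the plus strand for RT1-Ba, all in GRCr8. In RT1-Da and RT1-DMa 23 bases separated the first pattern from the second, and in RT1-Bb and RT1-Db1 there were 22. The X-like pattern began 82 bases before the gene start in RT1-Da, 93 in RT1-Bb, 97 in RT1-DMa and 112 in RT1-Db1. The RT1-Ba window held ATTGG, 43 bases before the start, without the X-like pattern. Cd74 lies on chromosome 18, and its window held ATTGG on the reverse strand, 189 bases before the start, with an X-like pattern further upstream. On its own each pattern was common, since the X-like pattern occurred on either strand in 39.8% of the 33469 promoter windows in the table and ATTGG in 37.5%. The X-like pattern followed by ATTGG on the same strand after 15 to 30 bases occurred in 263 windows, which is 0.786%. It was present in 4 of the 6 members with a window. Among the other genes examined it was found in RT1-Db2 and RT1-DOb of 4 further class II genes, in B2m, RT1-CE5 and RT1-M3-1 of 16 class I genes, and in Nfya of 10 regulators of class II. No window was given for Ciita or RT1-DMb. The patterns and the spacing were chosen after these promoters had been read, so the counts describe them and are no test, and a match is not evidence of binding.

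Total estimated counts ranged from 9304601 to 14125442 per animal. The kidney label held in every animal, as the lowest level of Umod, the uromodulin gene of the thick ascending limb, was 671.1 TPM (transcript abundance corrected for transcript length and library total). On the first principal component of log2 CPM (counts relative to library total), which held 56.3% of the variance, 4 treated animals lay at 80.83 or above and the other 20 at 11.53 or below. These were CoCM animal 39, i.p. ABCB5+ animal 38 and i.v. ABCB5+ animals 36 and 37. The injury gene Spp1 (osteopontin) was between 326.3 and 565.6 TPM in the 4 and between 6141 and 13260 TPM in the 20, and Havcr1, another injury gene, between 1.802 and 8.514 TPM and between 31.13 and 142.3 TPM. Whether these 4 animals carried the mutation was not tested. Group comparisons are therefore given with and without them. Components were computed from all genes, and these 4 animals are not a group of the study.

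Class II transcripts were abundant in these kidneys. In the 20 animals the median level was 4149 TPM for Cd74, 1312 TPM for RT1-Ba, 948.8 TPM for RT1-Da, 887.6 TPM for RT1-Bb and 812.2 TPM for RT1-Db1. The peptide exchange chains and the coactivator were far lower, at 117.5 TPM for RT1-DMb, 54.01 TPM for RT1-DMa and 12.32 TPM for Ciita. Ranked by TPM among all genes of a library, Cd74 stood between place 9 and place 38 in these animals, with a median of 16. The order of the 8 genes, in the sequence just given, was the same in 21 of the 24 kidneys. In CoCM animal 39, i.p. animal 38 and i.v. animal 36 RT1-Da was below RT1-Bb, and in CoCM animal 39 it was also below RT1-Db1 (96.57 against 103.3 TPM). Neighbours in this order that differed least were RT1-Da and RT1-Bb, and RT1-Bb and RT1-Db1, each with a median ratio of 1.1 in the 20 animals. The first ratio ranged from 1.03 to 1.22 and the second from 1.04 to 1.14. Between Cd74 and RT1-Ba the ratio was 3.09 in the median, with a range from 2.91 to 3.56. The counts of RT1-DMa and RT1-DMb were whole numbers in 8 of 24 animals and lay midway between whole numbers in 16, within 0.01. Cd74 had a whole count in 9 of 24 animals. The levels of these 3 genes relative to the other members are thus less certain, whereas the counts of Ciita and the 4 presenting chains were whole in all 24 animals.

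The invariant chain is described first. Cd74 ranged from 2959 to 5305 TPM in Ctrl (median 4402), from 717 to 5872 TPM in CoCM (median 3178), from 1100 to 5301 TPM with i.p. cells (median 3597) and from 1365 to 4861 TPM with i.v. cells (median 3490; n = 6 each). The 4 groups overlapped. The lowest values were those of the 4 animals that stood apart, and the highest was that of CoCM animal 40.

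**Figure D1:**
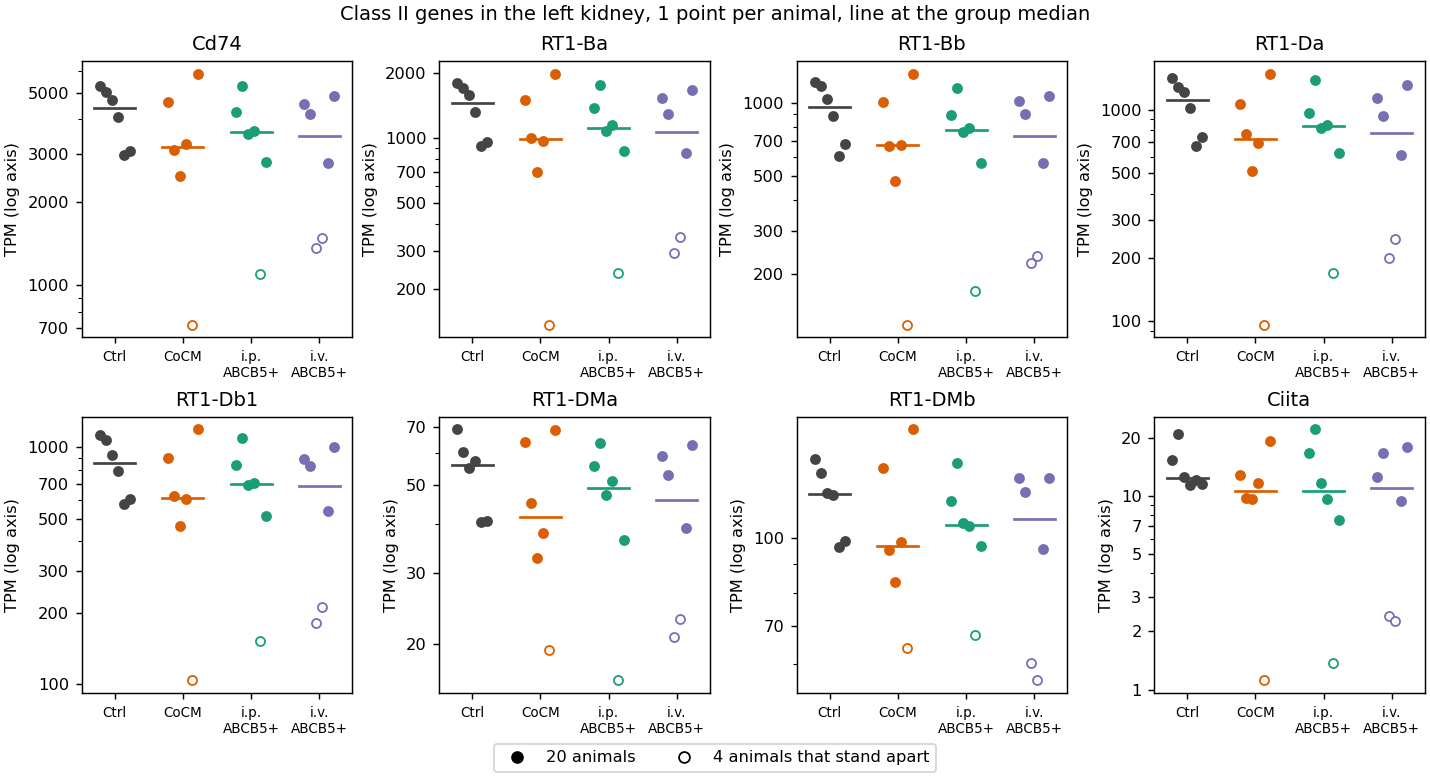
Level of each of the 8 class II genes in each kidney, in TPM on a log axis, for the 4 groups of 6 animals. Filled points are 20 animals, open points the 4 that stood apart (CoCM 39, i.p. ABCB5+ 38, i.v. ABCB5+ 36 and 37), and lines the group medians. The open points lie below all filled points for each gene, while the filled points of the 4 groups overlap.

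The presenting chains had their extremes in the same animals. RT1-Da ranged from 674.5 to 1410 TPM in Ctrl (median 1113), from 96.57 to 1477 TPM in CoCM (median 729.1), from 169.2 to 1372 TPM with i.p. cells (median 833.7) and from 200 to 1304 TPM with i.v. cells (median 772.9). Its beta chain partner RT1-Db1 had medians of 859.5 TPM in Ctrl, 613.8 TPM in CoCM, 700.1 TPM with i.p. cells and 684.5 TPM with i.v. cells. Of the RT1-B pair, RT1-Ba ranged from 924.3 to 1809 TPM in Ctrl (median 1458), from 137.3 to 1993 TPM in CoCM (median 990.6), from 237.1 to 1757 TPM with i.p. cells (median 1119) and from 293.2 to 1668 TPM with i.v. cells (median 1074). For all 4 chains the highest value came from CoCM animal 40 and the lowest from CoCM animal 39. RT1-Bb had medians of 958.3 TPM in Ctrl, 671.6 TPM in CoCM, 775.1 TPM with i.p. cells and 732.5 TPM with i.v. cells. Medians of the 4 presenting chains were thus highest in Ctrl, within ranges that overlapped.

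The peptide exchange pair varied less. RT1-DMb ranged from 96.41 to 137.5 TPM in Ctrl (median 119.2), from 63.94 to 155.0 TPM in CoCM (median 96.68), from 67.56 to 135.5 TPM with i.p. cells (median 105.5) and from 56.15 to 127.4 TPM with i.v. cells (median 108.0). RT1-DMa had medians of 56.21 TPM in Ctrl, 41.43 TPM in CoCM, 49.19 TPM with i.p. cells and 45.91 TPM with i.v. cells. Within Ctrl the coefficient of variation of TPM was 14.1% for RT1-DMb and 28.2% for RT1-Da, the lowest and the highest of the 8 genes. Ciita ranged from 11.43 to 21.01 TPM in Ctrl (median 12.32), from 1.118 to 19.21 TPM in CoCM (median 10.67), from 1.378 to 22.09 TPM with i.p. cells (median 10.62) and from 2.272 to 17.82 TPM with i.v. cells (median 10.99). Its group medians lay closer together than its values within any group.

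Whether conditioned medium changes class II expression was asked by comparing CoCM with Ctrl. In edgeR's quasi-likelihood test with Benjamini-Hochberg adjustment over all genes, 0 of the 8 genes had an adjusted p-value under 0.05, beside 1 of 12778 genes (0.00783%) in the background. With no adjustment, 0 of the 8 and 1523 of the 12778 genes had a p-value under 0.05. DESeq2 and limma voom with sample quality weights also called 0 of the 8, while they called 81 and 183 genes in all, and limma on log2(TPM + 1) called 0 of the 8 and 0 in all. The log2 fold changes lay between −0.07 for RT1-DMb and −0.39 for RT1-Da, with a median of −0.31 where the median over all genes was 0.0088. For Cd74 the value was −0.25 ± 0.373 (SE; 95% interval from −1.02 to 0.52; edgeR adjusted p = 0.754). For RT1-Da it was −0.39 ± 0.481 (95% interval from −1.38 to 0.61; edgeR adjusted p = 0.706). The interval of RT1-Da therefore included a fall of more than 1 log2 unit. Ciita had −0.31 ± 0.515 and an interval from −1.38 to 0.76. Without the 4 animals that stood apart, the change was −0.0501 ± 0.238 for Cd74 (95% interval from −0.55 to 0.45) and −0.16 ± 0.282 for RT1-Da (95% interval from −0.75 to 0.43), and 0 of the 8 genes were called. The size depended on single animals, since the log2 fold change of Cd74 was −0.474 without CoCM animal 40 and −0.0428 without CoCM animal 39.

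In two-sided exact permutation tests of log2 CPM over the 924 splits of the 12 animals, for which 0.00216 is the smallest possible value, the p-values of the 8 genes for CoCM against Ctrl lay between 0.290 and 0.662. Without the animals that stood apart the exact permutation p-values lay between 0.574 and 0.952. The ranges of CoCM and Ctrl overlapped for all 8 genes, where 1.38% of all genes had ranges that did not overlap. On the log2 CPM scale, 2 CoCM animals lay below the lowest Ctrl animal for RT1-Da and 0 lay above the highest.

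For the injected cells the estimates had the same sign. In i.p. ABCB5+ against Ctrl, edgeR called 0 of the 8 genes, where the background was 0 of 12778 genes (0%) with an adjusted p-value under 0.05 and 226 with an unadjusted one. The log2 fold changes ranged from −0.13 for RT1-DMb to −0.42 for RT1-Da, and that of Cd74 was −0.29 ± 0.373 (95% interval from −1.06 to 0.48). The edgeR adjusted p was 0.978 for each of the 8. Exact permutation p-values were between 0.266 and 0.424, and 1 i.p. ABCB5+ animal, number 38, was below the Ctrl range for RT1-Da. Without that animal and the others that stood apart, the log2 fold change was −0.11 ± 0.238 for Cd74 and −0.21 ± 0.282 for RT1-Da, and the exact permutation p-values lay between 0.528 and 0.755.

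In i.v. ABCB5+ against Ctrl the estimates were the largest of the contrasts with Ctrl for all 8 genes. Again 0 of the 8 passed the edgeR threshold, with a background of 0 of 12778 genes (0%) adjusted and 738 unadjusted. Cd74 had a log2 fold change of −0.37 ± 0.374 (95% interval from −1.15 to 0.40; edgeR adjusted p = 0.718) and RT1-Da of −0.52 ± 0.482 (95% interval from −1.52 to 0.48; edgeR adjusted p = 0.711). RT1-DMb, the smallest estimate, had −0.22 ± 0.189. The exact permutation p-values lay between 0.156 and 0.262, and 3 of the 6 i.v. ABCB5+ animals were below the Ctrl range for RT1-Da, among them animals 36 and 37. Without the animals that stood apart the log2 fold change was −0.0739 ± 0.254 for Cd74 and −0.12 ± 0.301 for RT1-Da, with exact permutation p-values between 0.705 and 0.929. The estimates for i.v. cells were then no longer the largest. Their median over the 8 genes was −0.081, beside −0.0918 for CoCM and −0.136 for i.p. cells. The contrasts with Ctrl share the same 6 control animals, so their common sign is not independent evidence. Ranges of the treated and control animals overlapped for all 8 genes in both comparisons, where 0.047% of all genes for i.p. and 0.11% for i.v. ABCB5+ had ranges that did not.

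**Figure D2:**
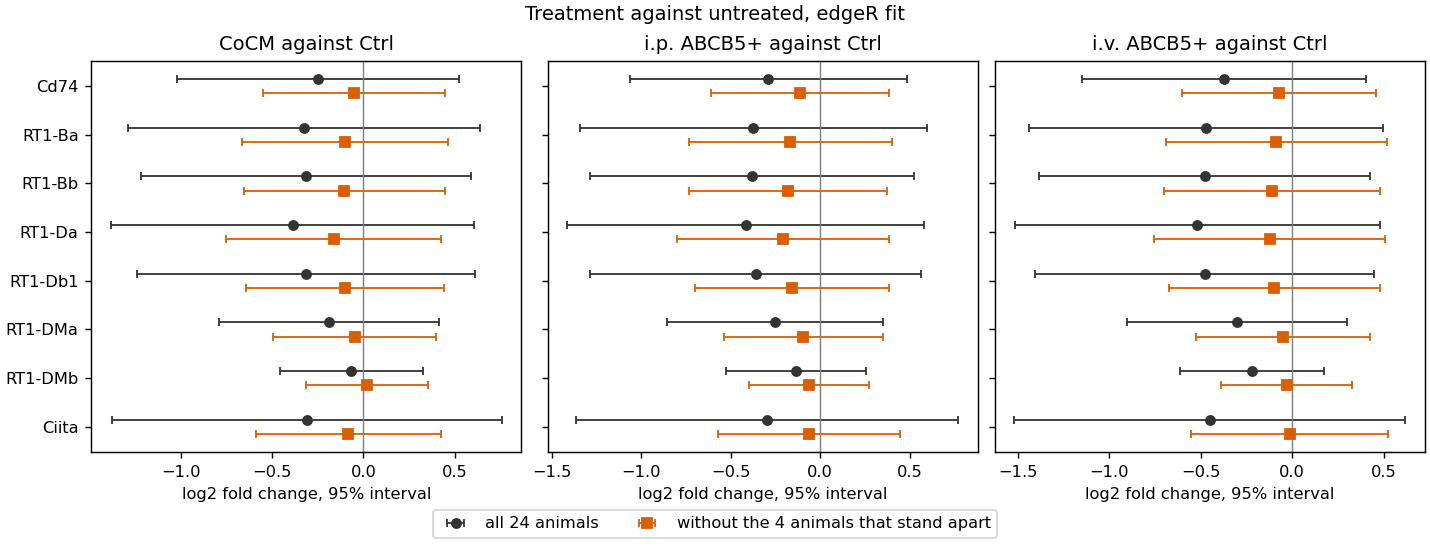
Log2 fold change of the 8 class II genes against Ctrl, with 95% intervals from the edgeR fit, for CoCM and for cells by either route. Dark circles are from all 24 animals and orange squares from the 20 left without the animals that stood apart. Each interval includes 0, and the squares lie nearer to 0 than the circles.

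The route of the cells was examined through i.p. against i.v. injection. The log2 fold changes of the 8 genes lay between 0.05 and 0.16, 0 of the 8 were called by edgeR (adjusted p = 1 for each), and the background was 0 of 12778 genes (0%). For Cd74 the value was 0.08 ± 0.373 with a 95% interval from −0.69 to 0.86, which includes differences of either sign. All 8 estimates were negative without the 4 animals that stood apart, and that of Cd74 was −0.0597 without i.v. animal 36 and 0.252 without i.p. animal 38. CoCM against the mean of both cell groups gave log2 fold changes from 0.07 for Ciita to 0.11 for RT1-Bb, again with 0 of 8 called and 0% of all genes. Here that of Cd74 was −0.143 without CoCM animal 40 and 0.292 without CoCM animal 39. Without the 4 animals that stood apart its estimates ranged from −0.0458 for Ciita to 0.0667 for RT1-DMb, with 0 of 8 called. Across all 4 groups, edgeR's F-test gave adjusted p-values of 0.887 or more for the 8 genes, and of 1 for each without the 4 animals. The exact permutation p-values lay between 0.537 and 0.885 for the route and between 0.637 and 1 for medium against cells. Without the 4 animals these exact permutation p-values lay between 0.754 and 0.881 and between 0.764 and 0.990. Ranges overlapped for all 8 genes in both, where they did not for 0.0626% of all genes for the route and 0.0391% for medium against cells.

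The 4 animals that stood apart were the lowest for all 8 class II genes. They stood apart on a component computed from all genes, these 8 included, so this is a description and no test. The share of all genes with this pattern is not given here. On other lists the pattern held for 10 of 10 macrophage and 7 of 7 T cell markers, 14 of 18 class I genes and 0 of 8 kidney markers. Relative to the median of the 20 animals, Ciita was lower by 11 times in animal 39 (CoCM), by 8.94 times in animal 38 (i.p. ABCB5+), and by 5.10 and 5.42 times in animals 36 and 37 (i.v. ABCB5+). The 4 presenting chains were lower by between 3.77 times (RT1-Ba and RT1-Bb, i.v. ABCB5+ animal 37) and 9.83 times (RT1-Da, CoCM animal 39). Cd74 was lower by between 2.80 and 5.79 times, RT1-DMa by between 2.34 and 3.34 times, and RT1-DMb by between 1.74 and 2.09 times. These folds are from TPM, which has no TMM scaling. For RT1-DMb the means of the 4 and the 20 were 61.97 and 114.8 in TPM, and 62.03 and 95.73 in CPM. Cd74 stood at places 224, 142, 90 and 91 of these libraries when genes were ranked by TPM. In RNA from whole tissue, fewer cells of a type and less RNA per cell cannot be told apart.

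Proportions between the presenting chains varied little in the 20 animals. The RT1-Ba to RT1-Bb ratio of TPM was 1.51 in the median of the 20 (from 1.42 to 1.57, coefficient of variation 2.87%), and it was 1.11 in CoCM animal 39 and between 1.32 and 1.48 in the remaining 3, of which animal 37 lay within the range of the 20. The RT1-Da to RT1-Db1 ratio was 1.21 in the median of the 20 (from 1.11 to 1.30, coefficient of variation 4.88%), and in the 4 it was 0.935 in CoCM animal 39 and between 1.11 and 1.16 in the others, within the range of the 20. The summed RT1-B chains exceeded the summed RT1-D chains by a ratio of 1.23 (from 1.18 to 1.27, coefficient of variation 2.27%). In the 4 that ratio was between 1.27 and 1.35. Cd74 was close to the sum of the 4 presenting chains in the 20 animals, with a median ratio of 1.03 and a range from 0.954 to 1.16. In the 4 this ratio was 1.56, 1.51, 1.52 and 1.42, each above the range of the 20.

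The peptide exchange pair and Ciita varied more in proportion, with coefficients of variation of 12.6% and 17.7% in the 20 animals. The RT1-DM chains amounted to 4.38% of the 4 presenting chains in the median of the 20 animals (from 3.64% to 5.39%), but to 18.1% in animal 39, 11.5% in animal 38, 9.05% in animal 36 and 7.61% in animal 37. Ciita amounted to 0.350% of the chains in the 20 (from 0.263% to 0.446%) and to between 0.189% and 0.270% in the 4. Within the 20 animals these proportions overlapped between the groups. The RT1-DM share, for example, had medians of 4.05% in Ctrl, 4.58% in CoCM, 4.46% with i.p. cells and 4.22% with i.v. cells. The ratios were chosen after the values had been seen and are given as descriptions.

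**Figure D3:**
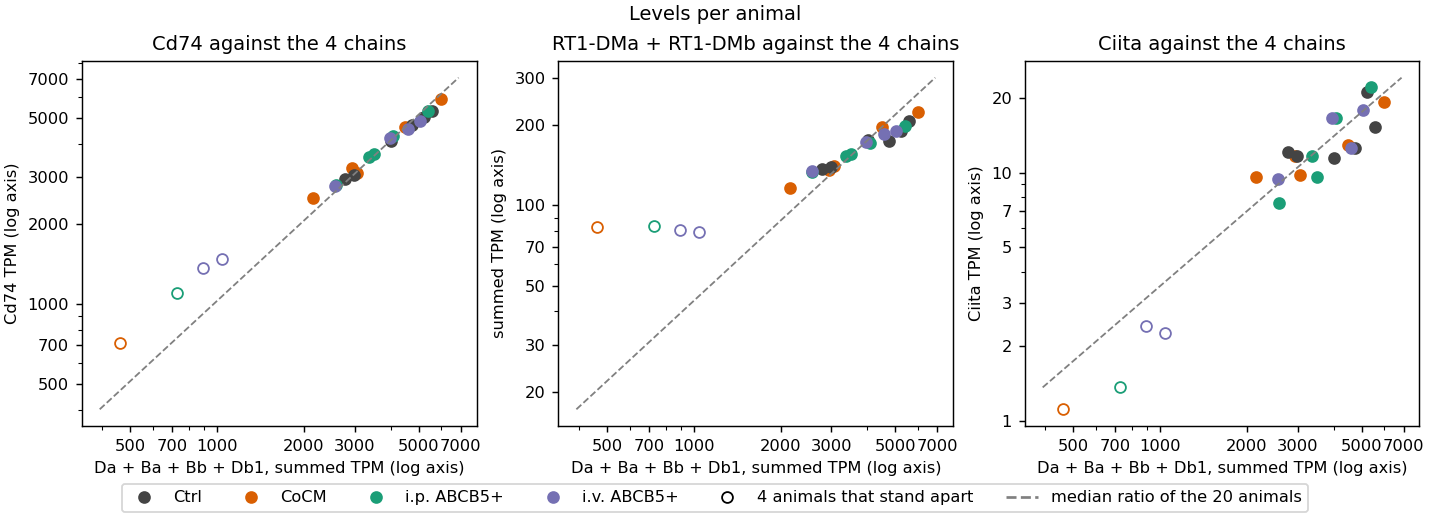
Cd74, the summed RT1-DM pair and Ciita against the sum of RT1-Da, RT1-Ba, RT1-Bb and RT1-Db1, in TPM on log axes, 1 point per kidney. Colours mark the groups, open points the 4 animals that stood apart, and the dashed line the median ratio of the 20 others. The open points lie above the line for Cd74 and the RT1-DM pair and below it for Ciita.

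Among the 20 animals the 8 genes varied together. Pearson's r of log2 CPM was positive for all 28 pairs, and permutation tests adjusted over the 28 pairs gave p-values of 0.00068 or less. The highest was that of RT1-Bb with RT1-Db1 (r = 0.996, Spearman's rho = 0.974, r without the 2 animals farthest from the median 0.996). Of the pairs without Ciita, the lowest was RT1-Da with RT1-DMb (r = 0.945, rho = 0.937, r without 2 animals 0.926). Pairs with Ciita were looser, from 0.693 with RT1-DMb (rho = 0.734, r without 2 animals 0.632) to 0.835 with RT1-Db1 (rho = 0.868, r without 2 animals 0.802). All 28 pairs had an adjusted permutation p under 0.05 also on log2(TPM + 1) and on deviations from the group means. The points share library depth and tissue make-up.

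The level of Cd74 was then set against single markers of other cells over the same 20 animals, in 8 relations. Adjusted permutation p-values were 2e-05, from the smallest p that these permutations can give (1e-05), for Csf1r of macrophages (r = 0.896, rho = 0.850, r without the 2 farthest animals 0.872), the phagocyte gene Cd68 (r = 0.924, rho = 0.890, 0.895), the dendritic cell receptor Flt3 (r = 0.855, rho = 0.845, 0.803) and the T cell gene Cd3e (r = 0.905, rho = 0.904, 0.881). The relation was weaker for the leukocyte gene Ptprc (r = 0.766, rho = 0.782, 0.767, adjusted permutation p = 0.000192) and for Cd79b of B cells (r = 0.613, rho = 0.684, 0.561, adjusted permutation p = 0.00481). It was not found for Spp1 (r = 0.305, rho = 0.271, 0.329, adjusted permutation p = 0.217) or for the tubular injury gene Havcr1 (r = 0.0103, rho = 0.0496, 0.188, adjusted permutation p = 0.964). With deviations from the group means, r was 0.932 for Csf1r, 0.939 for Cd68, 0.937 for Cd3e, 0.312 for Spp1 and 0.0113 for Havcr1.

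The genes whose level was most like the mean of the 8 were then listed. Of 12073 genes with a mean of at least 1 TPM, the 10 most alike by Pearson's r over the 20 animals were Laptm5 (0.982), Cd53, Pld4 (0.967), Lcp1 (0.963), Unc93b1 (0.962), Spi1 (0.962), Parvg (0.961), Cd37 (0.961), Ptpn6 (0.961) and Arhgap15 (0.960). Over all these genes the median r was −0.0748, and 2.97% had an r over 0.8. Laptm5, a lysosomal membrane protein gene of blood cells, ranged from 75.97 to 186.6 TPM in the 20 animals and from 10.03 to 21.71 TPM in the 4. Spi1, which encodes the myeloid and B cell factor PU.1, ranged from 31.90 to 73.69 TPM in the 20 and from 5.214 to 12.07 TPM in the 4. These values are descriptions, with no test.

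Other genes of the pathway and cell markers were taken by list, and 0 of the 102 genes tested on all lists besides the 8 passed the edgeR threshold in any contrast. Their smallest edgeR adjusted p-values were 0.319 for CoCM, 0.978 for i.p. and 0.673 for i.v. ABCB5+ against Ctrl. Of the 11 class II regulators in the files, 5 were below the 20 animals in all 4 that stood apart, and the median correlation with the mean of the 8 genes was 0.202. Of the 4 most abundant, Spi1 and Irf8 had an r of 0.962 and 0.743, and the box-binding subunit genes Rfxank and Nfyc of −0.403 and −0.400. Nfyc ranged from 75.24 to 107.1 TPM in the 20 animals and from 83.92 to 105.5 TPM in the 4, and Rfxank from 24.07 to 32.44 TPM and from 27.72 to 31.66 TPM. Both thus lay within the range of the 20 in the 4 animals. The other subunits, looked at after their values were known, were mixed. Rfx5, which encodes a DNA-binding RFX subunit, was between 17.46 and 33 TPM in the 20 and between 9.999 and 12.63 TPM in the 4, with an r of 0.290. Rfxap, Nfyb and Nfya had an r of 0.202, 0.437 and −0.0621, and their levels in the 4 animals overlapped those of the 20.

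The other class II chain genes were lower than those of the presenting chains. RT1-DOa had a median of 62.3 TPM in the 20 animals, above RT1-DMa at 54.01 TPM. Of the 4 genes on this list, 3 were below the 20 animals in all 4 that stood apart. RT1-DOa and RT1-DOb encode the pair that restrains RT1-DM in B cells and some other presenting cells. RT1-DOa ranged from 35.77 to 104.4 TPM in the 20 animals and from 3.347 to 6.667 TPM in the 4, and RT1-DOb from 14.27 to 45.21 TPM and from 2.574 to 5.074 TPM. The correlation with the mean of the 8 was 0.711 for RT1-DOa and 0.697 for RT1-DOb. In CoCM against Ctrl their log2 fold changes were 0.0078 and −0.22. RT1-Db2, a beta chain gene close to RT1-Db1, was between 0.938 and 3.78 TPM in the 20 animals and between 0.278 and 1.28 TPM in the 4, so that its ranges overlapped. Reads that both could have given may have been divided between them, which was not tested.

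Genes on the list of peptide preparation were mostly unlike the members. Their medians in the 20 animals ran from 3.378 TPM for Marchf1 to 2062 TPM for Ctsd. The lysosomal proteases Ctsd, Ctsl and Ctsb and the endosomal protein gene Cd63 had medians of 2062, 1693, 1412 and 1274 TPM in the 20 animals. Their correlations with the mean of the 8 genes were 0.180, −0.258, 0.559 and −0.0863. Ctss and Ifi30, a protease and a thiol reductase of antigen-presenting cells picked out here after their values were seen, had 0.913 and 0.848. The median over the 10 genes of this list was 0.337.

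Genes of the interferon gamma input and of class I presentation lay between. Ifngr1, a receptor chain, had an r of 0.889 and was between 101.7 and 217.5 TPM in the 20 animals and between 51.68 and 59.76 TPM in the 4. The transcription factor gene Irf1 had 0.704, with 47.00 to 102.5 TPM against 11.18 to 14.21 TPM. B2m, the light chain of class I, had 0.898 and was between 1662 and 2671 TPM in the 20 and between 730.6 and 1016 TPM in the 4. The chaperone gene Canx had −0.415. Of the costimulatory genes, Cd83 and Cd86 had 0.863 and 0.745. Median correlations were 0.432 for the interferon gamma list, 0.552 for class I and 0.632 for costimulation.

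Markers of antigen-presenting and other immune cells moved with the class II genes across animals. The 10 macrophage markers summed to between 602.2 and 1284 TPM in Ctrl, 105.4 and 1270 TPM in CoCM, 194.0 and 1029 TPM with i.p. cells, and 209.0 and 1028 TPM with i.v. cells. The sums were between 504.6 and 1284 TPM in the 20 animals and between 105.4 and 251.1 TPM in the 4, where all 10 markers were below the 20. Over the 20 animals, 9 of the 10 correlated with the mean of the 8 genes at more than 0.8, with C1qa (0.935) and C1qc (0.933), complement genes made by macrophages, among them. Their part in the differences of the class II genes was not tested.

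The 9 dendritic cell markers in the files summed to between 94.16 and 226.1 TPM in the 20 animals and between 12.13 and 22.99 TPM in the 4. The lectin gene Clec10a, the most abundant of them, had an r of 0.906, the highest on this list. The lowest was 0.351, for Zbtb46. Of the 8 with an r, 4 were above 0.8, and 7 of the 9 were below the 20 in all 4 animals. The 7 T cell markers summed to between 120.7 and 302.7 TPM and between 14.05 and 32.39 TPM, with 6 of the 7 above 0.8. The 6 B cell markers summed to between 18.58 and 96.93 TPM and between 1.580 and 2.282 TPM, and none of the 6 was above 0.8. Of these, Ms4a1, Cd79b and Pax5 were listed at 0 in at least 1 of the 4 animals. Median correlations were 0.812 for the dendritic cell, 0.871 for the T cell and 0.616 for the B cell list. Dendritic cell sums were between 102.9 and 223.6 TPM in Ctrl, 12.13 and 226.1 TPM in CoCM, 15.84 and 182.0 TPM with i.p. cells, and 22.33 and 180.5 TPM with i.v. cells. The part of these cells in the differences of the class II genes was not tested either.

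**Figure D4:**
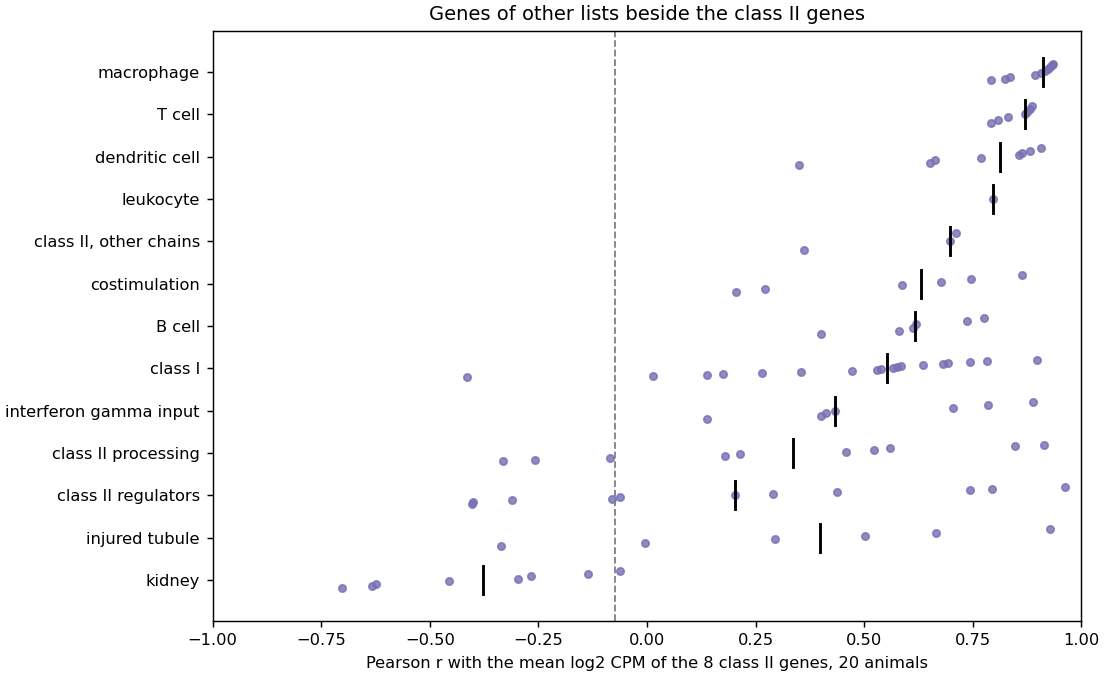
Pearson's r over 20 animals between the log2 CPM of each gene of 13 lists and the mean log2 CPM of the 8 class II genes, 1 point per gene and 1 row per list, with a bar at the list's median. The dashed line is the median over 12073 genes (−0.0748). Macrophage and T cell markers lie furthest to the right, with medians of 0.911 and 0.871, and kidney markers furthest to the left, with −0.377.

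Kidney cell markers ran the other way. The 8 markers of nephron segments summed to between 2126 and 7094 TPM in the 20 animals and between 8524 and 9053 TPM in the 4. Umod had an r of −0.703 with the mean of the 8 class II genes, Slc12a3 of the distal tubule −0.624 and the phosphate transporter gene Slc34a1 −0.298. Slc34a1 was the only one of the 8 that was above the whole range of the 20 in each of the 4 animals. Of 7 genes of injured tubules, 5 were below the 20 in all 4 animals. In the 20 animals Lcn2 had an r of 0.666, Spp1 of 0.295 and Havcr1 of −0.00472, so tubular injury genes did not share 1 pattern with class II. The part of nephron cell content in the class II levels was not tested.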

How the data were processed

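Left kidney RNA of 24 rats was sequenced on a BGI instrument. The authors deposited, for each animal, a table of estimated counts, not normalized, and a table of TPM values, scaled by the authors to transcript length and library total. The submitters' processing notes name Trim Galore 0.6.4, kallisto 0.4.6 and rn6. DESeq2 and, although the animals are rats, a human annotation package are named in the study's methods. Groups were taken from the sample labels. Total counts were 9304601 to 14125442, and 3 counts, the floor, are 0.322 CPM in the smallest library. The 8 members and the gene lists were chosen with earlier results of these data known.

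Estimated counts were rounded, filtered with filterByExpr and scaled by TMM. A model with 4 group means was fitted to all 24 animals in edgeR 4.0.16 (R 4.3.3), tested by the quasi-likelihood F-test and adjusted by Benjamini-Hochberg over 12778 genes, with a threshold of 0.05. Single genes were also compared by exact permutation of log2 CPM (prior count 2) in scipy 1.17.1, and correlations by 100000 permutations. DESeq2 1.42.0, limma 3.58.1 on voom or log2(TPM + 1) values, other filters and scalings, and each animal left out were alternatives, and leaving out 4 animals was added after seeing the data. Named were the 8 members, at most 4 further genes per list by mean TPM, and the 10 genes most alike. Some further genes, named to show the range of a list, were picked after their values were seen. In simulated counts for CoCM against Ctrl (12732 genes, 200 changed 4-fold), edgeR recovered 89.5%, while 5.79% of the genes it called had not been changed. Entrez identifiers were matched by symbol to a RefSeq table of GRCr8. Ep300, Nlrc5, Icosl, Itgax and Cd79a were not analysed here. Animals were not paired.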

Additional observations from a re-analysis of the deposited data

Results flagged for a closer look

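Values of log2 CPM were examined for 8 genes in 4 groups, and in 8 of these 32 sets of 6 animals 1 animal lay far from the other 5 by Dixon's criterion, where about 1.6 would by chance. The 8 genes vary together and the sets are not independent. In i.p. ABCB5+, animal 38 was low for 7 genes. Its Cd74 was 9.987 (others 11.21 to 11.87), its Ciita 2.664 (others 4.97 to 6.274), its RT1-Da 7.275 (others 9.033 to 9.903) and its RT1-Ba 7.648 (others 9.397 to 10.15). Its RT1-Bb was 7.694 (others 9.299 to 10.06), its RT1-Db1 7.232 (others 8.853 to 9.70) and its RT1-DMa 3.74 (others 4.776 to 5.32). In CoCM, animal 39 was low for Ciita, at 2.304 (others 5.199 to 6.22). Both animals are among the 4 that stood apart over all genes. The 2 low animals of i.v. ABCB5+ lay near each other, and this criterion, which looks for 1 distant animal, does not find a pair.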

How the results depend on the processing

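No member was called under any of the 10 alternatives or with any 1 animal left out. The lowest unadjusted p was 0.163 over the alternatives and 0.119 with 1 animal left out, and the lowest adjusted p was 0.407. The count of all genes called for CoCM against Ctrl did depend on the tool, with 1 in edgeR, 81 in DESeq2 and 183 in limma voom with sample quality weights. Of the members' fold changes, 372 kept their sign and 28 changed it, and with 1 animal left out 917 kept it and 43 changed it. Causes of these changes were not tested.

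Without the 4 animals that stood apart, the log2 fold change for i.p. against i.v. ABCB5+ was −0.0409 for Cd74, −0.0482 for Ciita, −0.0841 for RT1-Da, −0.0785 for RT1-Ba, −0.0697 for RT1-Bb, −0.0606 for RT1-Db1, −0.0425 for RT1-DMa and −0.0338 for RT1-DMb. In the same setting it was 0.021 for RT1-DMb in CoCM against Ctrl and −0.0458 for Ciita in CoCM against cells. With sample quality weights Ciita had −0.103 for the route of injection, and for CoCM against cells the values were −0.0622 for Cd74, −0.0634 for Ciita, −0.11 for RT1-Da, −0.0941 for RT1-Ba, −0.081 for RT1-Bb, −0.0847 for RT1-Db1 and −0.0498 for RT1-DMa. CoCM against cells on log2(TPM + 1) gave −0.0792 for Cd74, −0.102 for RT1-Da, −0.0979 for RT1-Ba, −0.0357 for RT1-Bb and −0.0423 for RT1-Db1, and on log2(TPM + 0.1) −0.0793, −0.103, −0.0985, −0.0361 and −0.0429.

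With 1 animal left out, CoCM against cells ranged from −0.143 to 0.292 for Cd74, −0.18 to 0.303 for Ciita, −0.202 to 0.314 for RT1-Da, −0.174 to 0.33 for RT1-Ba, −0.144 to 0.335 for RT1-Bb, −0.149 to 0.329 for RT1-Db1, −0.062 to 0.239 for RT1-DMa and −0.0221 to 0.211 for RT1-DMb. The lowest of these values came without CoCM animal 40 and the highest without CoCM animal 39. The i.p. against i.v. ABCB5+ change ranged from −0.0597 to 0.252 for Cd74, −0.108 to 0.391 for Ciita, −0.086 to 0.329 for RT1-Da, −0.084 to 0.295 for RT1-Ba, −0.0722 to 0.291 for RT1-Bb, −0.0633 to 0.312 for RT1-Db1 and −0.0775 to 0.203 for RT1-DMa. Its extremes came without i.p. animal 30 or 38 or i.v. animal 36 or 43. RT1-DMb in CoCM against Ctrl ranged from −0.199 to 0.0291.

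No paired analysis was possible because no animal number occurred in more than 1 group. The lowest count of a member was 42. With 6 animals per group the 95% interval of Cd74 for CoCM against Ctrl spanned −1.02 to 0.52.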
